A study of Mus musculus with 26 samples.

Results

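Delivery of Elk-1 with an adeno-associated virus (AAV) was compared with a control AAV in the striatum of 10-week-old R6/1 mice. The comparison used 6 of the series' 26 striatal RNA sequencing libraries, 4 labelled Elk-1 AAV and 2 labelled control AAV, and both groups carry the R6/1 transgene. It was taken from the authors' deposited table for these groups, in which 12678 of 12701 rows remained after microRNA and small nucleolar RNA rows were left out and a mean of at least 0.5 FPKM (fragments per kilobase of transcript, scaled to library size) was required. The control vector is named mCherry in the rows of that table. For orientation, levels are also given for 2 control-AAV wild-type libraries of 10 weeks, called wild type in their titles although the model field of all AAV samples names R6/1, and for 3 R6/1 and 3 wild-type libraries of 8 weeks without AAV. The sources used here do not give the promoter or serotype of the vectors, the species of the Elk-1 sequence, the injection site, the sex of the mice or whether each library is a separate animal.

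R6/1 mice carry exon 1 of the human huntingtin gene with an expanded CAG repeat and are a model of Huntington's disease, in which the spiny projection neurons of the striatum lose much of their characteristic expression. Elk-1 belongs to the ETS family and to its ternary complex factors, which bind DNA beside the serum response factor SRF. Phosphorylation of Elk-1 by the ERK kinases switches on immediate-early genes such as Egr1 and Fos in stimulated neurons, and in brain Elk-1 is also found outside the nucleus. Interferons act by another route, through transcription factors, the interferon regulatory factors among them, that bind the interferon-stimulated response element (ISRE) in the promoters of antiviral and antigen presentation genes.

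Under Elk-1 AAV, 13 of 28 listed interferon-stimulated genes, 5 of 17 antigen presentation genes and 4 of 23 microglial genes were called higher, and 4 of 15 hypothalamic and septal genes and 4 of 10 thalamic and pallidal genes were called lower, in the authors' deposited table. Genes of striatal projection neurons, which are below wild-type levels in R6/1 mice, and activity-induced genes, which include textbook Elk-1 targets, gave no call. A q below 0.05 was given to 73 of the 12678 genes (0.576%) in the authors' deposited table, and these are the genes called higher or lower here. Of them 38 were higher (0.300%) and 35 were lower (0.276%) under Elk-1 AAV. An unadjusted p under 0.05 was listed for 329 genes with a higher value (2.60%) and 292 with a lower value (2.30%) in the authors' deposited table. The median change over all genes was 0.01, where a change is log2((Elk-1 AAV FPKM + 1)/(control AAV FPKM + 1)), a scale that understates the change of low genes.

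**Figure D1:**
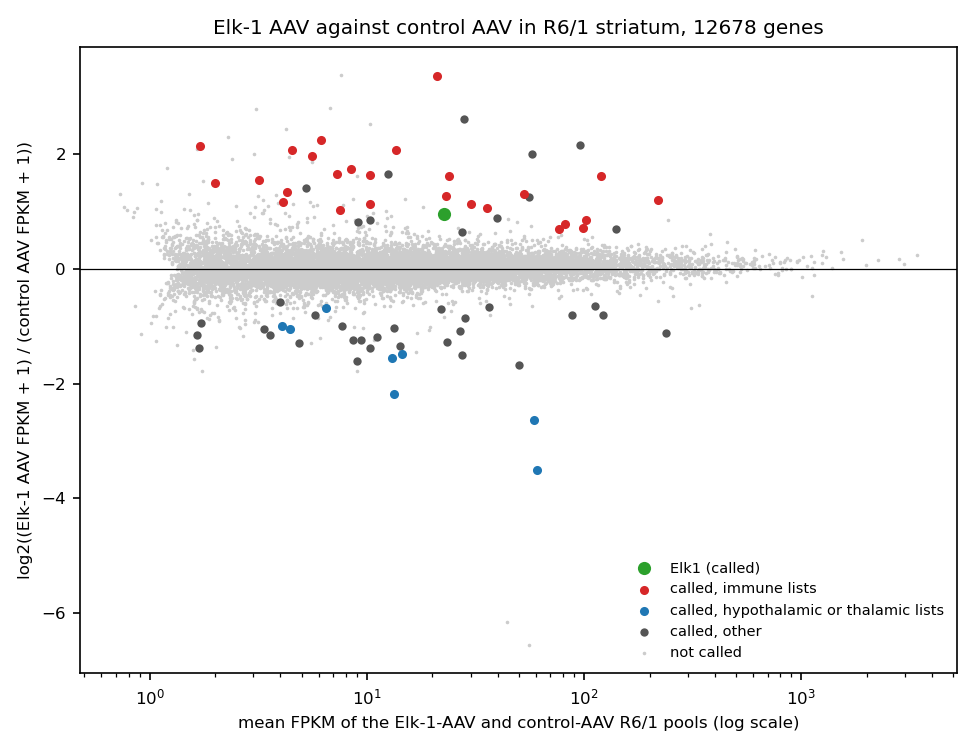
Each point is a gene, with the mean FPKM of the pools on a log scale on the x axis and the log2(FPKM + 1) change, Elk-1 AAV over control AAV, on the y axis. Called genes from the immune lists lie above 0 and called genes from the hypothalamic and thalamic lists below it; the lowest points, Pmch at -6.55 and Hcrt at -6.16, are not called.

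The table holds 1 pooled FPKM value per group and gene, so no spread between libraries can be shown, and depth is unknown. The deposited p-values are those of the authors' program; where libraries are not separate animals, they reflect technical spread alone. The lowest q in the authors' deposited table is 0.0122, and 52 of the 73 called genes share it; a called gene given below without a q has that value. Nearest to the threshold in the authors' deposited table were a q of 0.0435 inside it and of 0.0508, for Ly6a and Usp2, outside it. Sex-linked genes set the pools apart. Eif2s3y, a Y-linked gene, was at 6.12 FPKM in Elk-1-AAV R6/1 and 0.030 FPKM in control-AAV R6/1. Ddx3y, another Y-linked gene, was at 3.28 FPKM in Elk-1-AAV R6/1 and 0.010 FPKM in control-AAV R6/1, while Xist, the RNA of the inactive X chromosome, was at 19.8 FPKM in Elk-1-AAV R6/1 and 29.7 FPKM in control-AAV R6/1. None of these was called in the authors' deposited table, where q was 0.999, 0.999 and 0.395. In the table of control-AAV R6/1 against control-AAV wild type, the wild-type pool had 12.6 FPKM of Eif2s3y, 4.53 FPKM of Ddx3y and 12.8 FPKM of Xist. Of these 3 pools, Y-linked transcripts were thus nearly absent in control-AAV R6/1 alone. At 8 weeks without AAV, Eif2s3y was at 25.9 FPKM in R6/1 and 21.5 FPKM in wild type. Ddx3y was at 19.2 FPKM in R6/1 and 15.5 FPKM in wild type at that age, and Xist was not listed. The part of these sex-linked differences in the results below was not tested, and pooled values allow no analysis without single libraries. The X chromosome held 429 tested genes (3.38%), with a median change of -0.07 against 0.02 for autosomal genes, and 6 of the 35 genes called lower (17.1%).

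Elk1 itself was at 30.1 FPKM in Elk-1-AAV R6/1, against 15.1 FPKM in control-AAV R6/1 and 17.0 FPKM in control-AAV wild type, a 1.99-fold higher level in Elk-1-AAV R6/1. Its log2(FPKM + 1) change was 0.95, and it was called higher in the authors' deposited table. The gene is listed on chromosome X, 20510520 to 20527726 of the mm9 build. FPKM of this row cannot separate transcripts of the vector from those of the mouse gene. Of the 13 listed genes that encode ternary complex factors, SRF, its cofactors and the ERK kinases acting on Elk-1, Elk1 was the 1 called gene. Srf was at 20.7 FPKM in Elk-1-AAV R6/1 and 17.2 FPKM in control-AAV R6/1. Elk3, a ternary complex factor, was at 2.29 FPKM in Elk-1-AAV R6/1 and 1.77 FPKM in control-AAV R6/1. Elk4, the remaining family member, was at 2.08 FPKM in Elk-1-AAV R6/1 and 2.32 FPKM in control-AAV R6/1. The log2(FPKM + 1) changes of Srf, Elk3 and Elk4 were 0.25, 0.25 and -0.11, each with a q of 0.999 in the authors' deposited table. None of the 11 other ETS family genes listed was called, the lowest q being 0.691 in the authors' deposited table, with a median change of 0.13. Huntingtin, Htt, was at 11.7 FPKM in Elk-1-AAV R6/1 and 11.6 FPKM in control-AAV R6/1.

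Activity-induced genes were examined because Elk-1 and SRF act on many of them. Of 45 listed members of 50, 0 were called, 3 had an unadjusted p under 0.05 with a higher value and 1 with a lower value in the authors' deposited table. Their values were higher for 19 and lower for 26, where 52.8% and 47.2% of all genes were, and the median change was -0.04, with a range of -0.48 to 0.66. Egr1, an immediate-early transcription factor, was at 78.9 FPKM in Elk-1-AAV R6/1, 68.5 FPKM in control-AAV R6/1 and 173 FPKM in control-AAV wild type. Fos, a subunit of AP-1, was at 16.5 FPKM in Elk-1-AAV R6/1, 17.5 FPKM in control-AAV R6/1 and 34.9 FPKM in control-AAV wild type. Arc, which regulates synaptic AMPA receptors, was at 45.6 FPKM in Elk-1-AAV R6/1, 36.9 FPKM in control-AAV R6/1 and 118 FPKM in control-AAV wild type. In all 3 genes the R6/1 pools lay close together and below the wild-type pool. Nearest to the threshold were Sgk1, a serum- and glucocorticoid-regulated kinase, and Junb, an AP-1 subunit. Sgk1 was at 47.0 FPKM in Elk-1-AAV R6/1 and 30.3 FPKM in control-AAV R6/1, with a q of 0.0570 in the authors' deposited table. Junb was at 55.9 FPKM in Elk-1-AAV R6/1 and 35.1 FPKM in control-AAV R6/1, with a q of 0.0635 in the authors' deposited table. Wild-type values come from another table, in which the shared control-AAV R6/1 pool is scaled lower, by a factor of 1.024 over 12608 genes.

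The labelled tissue showed the markers of the striatum in both groups. Among 36 listed genes shared by spiny projection neurons, 0 were called; 31 had a higher value under Elk-1 AAV, where 52.8% of all genes did, and 6 had an unadjusted p under 0.05 in the authors' deposited table, each with a higher value. Their median change was 0.19, against 0.01 for all genes. In the 10-week genotype comparison, which uses the same control-AAV R6/1 libraries, 24 of 39 listed members were called lower in R6/1 in the authors' deposited table (2.51% of all genes), with a median change of -0.86, and at 8 weeks without AAV 36 of 39 were called lower in R6/1 (5.34%), with a median of -0.99. Ppp1r1b, which encodes the dopamine-regulated phosphatase inhibitor DARPP-32, was at 527 FPKM in Elk-1-AAV R6/1, 383 FPKM in control-AAV R6/1 and 816 FPKM in control-AAV wild type, with a q of 0.729 between the R6/1 pools in the authors' deposited table. Pde10a, a phosphodiesterase of these neurons, was at 24.5 FPKM in Elk-1-AAV R6/1, 21.2 FPKM in control-AAV R6/1 and 54.8 FPKM in control-AAV wild type. Scn4b, a sodium channel subunit, was at 51.2 FPKM in Elk-1-AAV R6/1, 39.5 FPKM in control-AAV R6/1 and 172 FPKM in control-AAV wild type. In each of these genes the Elk-1-AAV R6/1 value lay between the control-AAV R6/1 and control-AAV wild-type values and nearer to control-AAV R6/1.

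Genes of the direct and indirect pathways, the projection neurons that express dopamine receptors of different types, were counted separately. Of 9 listed direct pathway genes 0 were called, with a median change of 0.19 and an unadjusted p of at least 0.0725 in the authors' deposited table. Of 9 listed indirect pathway genes 0 were called, with a median of 0.23, a higher value in 9 and an unadjusted p of at least 0.125 in the authors' deposited table. Drd1a, the dopamine receptor of the direct pathway, was at 22.8 FPKM in Elk-1-AAV R6/1, 19.9 FPKM in control-AAV R6/1 and 39.1 FPKM in control-AAV wild type. Drd2, the dopamine receptor of the indirect pathway, was at 44.8 FPKM in Elk-1-AAV R6/1, 37.6 FPKM in control-AAV R6/1 and 59.3 FPKM in control-AAV wild type. Both receptor genes thus differed little between the R6/1 pools. Adora2a, the adenosine receptor of indirect pathway neurons, was at 47.8 FPKM in Elk-1-AAV R6/1, 40.5 FPKM in control-AAV R6/1 and 94.2 FPKM in control-AAV wild type. Penk, which encodes the enkephalin precursor, was at 289 FPKM in Elk-1-AAV R6/1, 256 FPKM in control-AAV R6/1 and 749 FPKM in control-AAV wild type. In bulk tissue, fewer cells of a type and less RNA per cell cannot be told apart. With 2 and 4 libraries, a q above the threshold does not show that projection neuron genes did not differ.

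**Figure D2:**
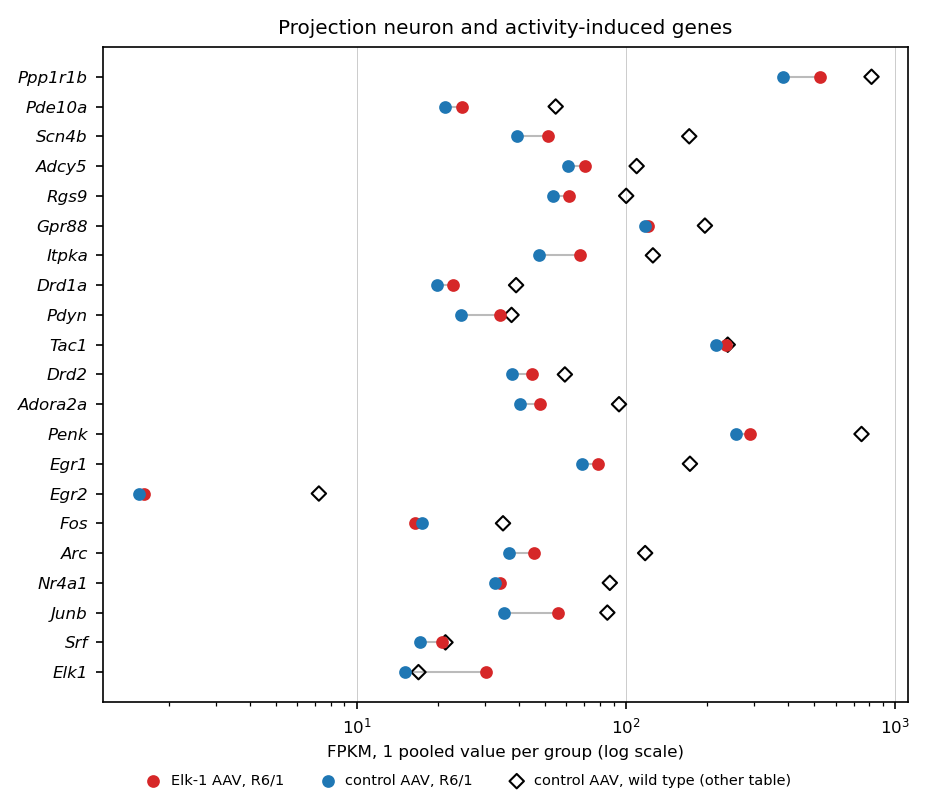
Pooled FPKM on a log x axis for projection neuron and activity-induced genes in Elk-1-AAV R6/1 (red), control-AAV R6/1 (blue) and control-AAV wild type (open diamonds, from another table). The R6/1 points lie close together and mostly left of the wild-type diamonds; Elk1, at 30.1 and 15.1 FPKM in the Elk-1-AAV and control-AAV R6/1 pools, is the only called gene shown.

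Of the gene lists read, the interferon-stimulated genes held the most genes called higher. Of 28 listed members of 32, 13 were called higher and 0 lower in the authors' deposited table (0.300% and 0.276% of all genes). An unadjusted p under 0.05 was listed for 27 in the authors' deposited table, where 2.60% of all genes had one with a higher value. All 28 had a higher value in Elk-1-AAV R6/1, where 52.8% of all genes did. Because every row of the table has a value of at least 1.26 FPKM in the higher pool, 11 of the 28, with control-AAV values below that level, were in the table only through the Elk-1-AAV pool and had to be higher. The called genes Ifit1 and Usp18 and the uncalled gene Zbp1, all given below, were among these 11. Among the other 17, which reached 1.26 FPKM in both pools, 11 were called higher and 16 had an unadjusted p under 0.05 in the authors' deposited table, with a median change of 1.12.

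In promoters of these genes the ISRE was searched for as TTTC and TTTC with any 2 bases between them, on both strands, a motif chosen after the values were seen. The stretches below are the 250 bases before the annotated start, 5′ to 3′ along the gene, of 4 called interferon genes that hold it, with the matches in capitals. They were printed because they hold the motif and are not the 4 most changed genes. Irf7, with a change of 2.25, and Oasl2, with 1.96, hold no match there. Stretches of Igtp, Gbp3 and Irgm1 also hold the motif but are not printed. They are RefSeq sequences of the GRCm38.p6 build, not the mm9 build of the files. The Isg15 stretch is chr4:156200819-156201068 on the minus strand. The Ifit1 stretch is chr19:34640639-34640888 on the plus strand. The Ifit3 stretch is chr19:34583279-34583528 on the plus strand. The Bst2 stretch is chr8:71537473-71537722 on the minus strand.
Isg15: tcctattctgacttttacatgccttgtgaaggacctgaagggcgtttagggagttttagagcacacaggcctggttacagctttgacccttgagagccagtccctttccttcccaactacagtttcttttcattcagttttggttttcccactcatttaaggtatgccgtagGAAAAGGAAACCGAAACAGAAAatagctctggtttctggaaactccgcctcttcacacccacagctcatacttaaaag
Ifit1: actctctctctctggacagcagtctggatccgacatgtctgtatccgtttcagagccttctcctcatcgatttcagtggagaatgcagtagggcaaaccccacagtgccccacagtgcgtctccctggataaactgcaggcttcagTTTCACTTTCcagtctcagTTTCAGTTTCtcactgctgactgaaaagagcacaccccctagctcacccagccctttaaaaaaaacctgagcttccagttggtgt
Ifit3: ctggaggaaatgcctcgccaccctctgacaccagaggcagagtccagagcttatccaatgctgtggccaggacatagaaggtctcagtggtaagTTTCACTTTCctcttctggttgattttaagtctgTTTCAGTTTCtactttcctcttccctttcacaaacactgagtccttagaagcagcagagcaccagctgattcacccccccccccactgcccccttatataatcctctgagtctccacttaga
Bst2: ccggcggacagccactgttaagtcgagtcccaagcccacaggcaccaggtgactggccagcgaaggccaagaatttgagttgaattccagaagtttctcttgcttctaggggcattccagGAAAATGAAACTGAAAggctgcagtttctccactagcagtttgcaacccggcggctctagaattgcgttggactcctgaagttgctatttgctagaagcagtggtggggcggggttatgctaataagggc

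In these stretches Isg15 holds 3 overlapping matches, ending 69, 63 and 57 bases before the start, Bst2 holds 2 overlapping ones, and Ifit1 and Ifit3 hold 2 separate ones each. In windows of 250 bases before to 50 after the start, the motif was present for 12 of the 28 genes called higher with a RefSeq window (42.9%), 0 of 29 called lower, and 349 of 10093 tested genes with a window (3.46%). It was also present for 14 of the 21 listed interferon genes with a window (66.7%) and for 2 of the 14 listed antigen presentation genes with one (14.3%). The 250-base stretches of Irf7, Oasl2, Lgals3bp and Ifitm3, called higher as well, hold no match; the match of Ifitm3 reaches past the start. The ETS motif CCGGAAG was in 0 of the 28 windows of genes called higher and 0 of 29 of genes called lower, against 19.3% of tested genes; it was in 2 of the 21 interferon and 1 of the 14 antigen presentation windows. The CArG box of SRF, CC and GG around 6 bases of A or T, was in 1 of 28, that of Mpeg1, and 0 of 29, against 1.55% of tested genes. The CRE, TGACGTCA, was in 0 of 28 and in 1 of 29, that of Zdbf2, against 3.65%. All motifs were searched on both strands, and a match describes the letters of a window, not binding.

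Irf7, a transcription factor that amplifies interferon production, was at 10.8 FPKM in Elk-1-AAV R6/1, 1.48 FPKM in control-AAV R6/1 and 2.94 FPKM in control-AAV wild type, a change of 2.25 between the R6/1 pools. Isg15, a ubiquitin-like protein attached to other proteins in antiviral defence and the first of the promoters printed above, was at 22.6 FPKM in Elk-1-AAV R6/1, 4.59 FPKM in control-AAV R6/1 and 9.19 FPKM in control-AAV wild type. Ifit1, which binds foreign RNA, was at 7.92 FPKM in Elk-1-AAV R6/1, 1.13 FPKM in control-AAV R6/1 and 2.03 FPKM in control-AAV wild type. In these 3 genes the Elk-1-AAV R6/1 pool was the highest of the AAV pools, though Ifit1, below 1.26 FPKM in control-AAV R6/1, had to exceed that pool. Ifit3, a partner of Ifit1, was at 13.5 FPKM in Elk-1-AAV R6/1, 3.33 FPKM in control-AAV R6/1 and 8.09 FPKM in control-AAV wild type. Bst2, or tetherin, which holds budding virus at the cell surface, was at 36.6 FPKM in Elk-1-AAV R6/1, 11.3 FPKM in control-AAV R6/1 and 18.6 FPKM in control-AAV wild type. Oasl2, a relative of the oligoadenylate synthetases, was at 9.46 FPKM in Elk-1-AAV R6/1, 1.69 FPKM in control-AAV R6/1 and 3.95 FPKM in control-AAV wild type. The same order of pools held for Ifit3, Bst2 and Oasl2. Usp18, the protease that removes Isg15, was at 5.24 FPKM in Elk-1-AAV R6/1 and 1.13 FPKM in control-AAV R6/1, with a q of 0.0435 in the authors' deposited table. Lgals3bp, a galectin-binding glycoprotein, was at 33.1 FPKM in Elk-1-AAV R6/1 and 13.1 FPKM in control-AAV R6/1. Usp18 and Lgals3bp were likewise below these Elk-1-AAV values in control-AAV wild type, at 1.37 and 14.5 FPKM. Gbp3, a guanylate-binding protein, was at 6.58 FPKM in Elk-1-AAV R6/1 and 1.99 FPKM in control-AAV R6/1. Ifitm3, which restricts virus entry, was at 48.8 FPKM in Elk-1-AAV R6/1 and 22.8 FPKM in control-AAV R6/1, with a q of 0.0435 in the authors' deposited table.

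In the called GTPases Igtp and Irgm1 the order of the pools was another. Igtp, an immunity-related GTPase induced by interferon gamma, was at 11.6 FPKM in Elk-1-AAV R6/1, 3.01 FPKM in control-AAV R6/1 and 25.6 FPKM in control-AAV wild type. Irgm1, a GTPase of the same family, was at 10.4 FPKM in Elk-1-AAV R6/1, 4.596 FPKM in control-AAV R6/1 and 15.9 FPKM in control-AAV wild type, with a q of 0.0435 between the R6/1 pools in the authors' deposited table. For Igtp and Irgm1 the wild-type pool stood above both R6/1 pools. Summed over listed interferon genes, the level was 377 FPKM in Elk-1-AAV R6/1 and 162 FPKM in control-AAV R6/1. The genotype table lists 21 of these genes, summing to 154 FPKM in control-AAV R6/1 and 228 FPKM in control-AAV wild type; 6 were called lower (2.51% of all genes) and 0 higher (0.725%) in R6/1 in the authors' deposited table. That table shares the control-AAV R6/1 libraries, so its comparison is not independent of the comparison under Elk-1 AAV. At 8 weeks, in libraries without AAV that the 10-week tables do not share, 2 of 27 listed members were called higher and 0 lower in R6/1 in the authors' deposited table (0.801% of all genes higher), with a median change of 0.16.

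Among uncalled interferon genes, Zbp1, a sensor of nucleic acids, was at 3.11 FPKM in Elk-1-AAV R6/1 and 0.416 FPKM in control-AAV R6/1, with a q of 0.796 in the authors' deposited table. Irf9, an interferon regulatory factor that binds DNA in a complex with Stat2, was at 10.5 FPKM in Elk-1-AAV R6/1 and 5.49 FPKM in control-AAV R6/1, with a q of 0.0999 in the authors' deposited table. Stat2 was at 8.13 FPKM in Elk-1-AAV R6/1 and 5.83 FPKM in control-AAV R6/1, and Ifit2, a relative of Ifit1, had the least change, at 4.17 FPKM in Elk-1-AAV R6/1 and 3.25 FPKM in control-AAV R6/1.

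Antigen presentation genes were the list with the next most genes called higher. Of 17 listed members of 19, 5 were called higher (0.300% of all genes) and 0 lower in the authors' deposited table. An unadjusted p under 0.05 was listed for 14 in the authors' deposited table, where 2.60% of all genes had one with a higher value. All 17 had a higher value, with a median change of 0.97, and all values were at or above 1.26 FPKM in both pools. Summed over the list, the level was 810 FPKM in Elk-1-AAV R6/1 and 358 FPKM in control-AAV R6/1. In the genotype comparison 17 members summed to 350 FPKM in the shared control-AAV R6/1 pool and 786 FPKM in control-AAV wild type. Of them 11 were called lower in R6/1 in the authors' deposited table (2.51% of all genes), with a median change of -1.17. At 8 weeks without AAV 1 of 17 was called higher (0.801%) and 0 lower in R6/1, with a median of 0.29. H2-D1, a classical MHC class I heavy chain, was at 180 FPKM in Elk-1-AAV R6/1, 58.0 FPKM in control-AAV R6/1 and 125 FPKM in control-AAV wild type. H2-K1, the other classical class I heavy chain listed, was at 75.4 FPKM in Elk-1-AAV R6/1, 29.8 FPKM in control-AAV R6/1 and 57.9 FPKM in control-AAV wild type. B2m, the light chain they share, was at 305 FPKM in Elk-1-AAV R6/1, 132 FPKM in control-AAV R6/1 and 224 FPKM in control-AAV wild type. For each of these the Elk-1-AAV R6/1 pool was the highest and the control-AAV R6/1 pool the lowest. H2-Q4, a nonclassical class I gene, was at 16.2 FPKM in Elk-1-AAV R6/1, 4.56 FPKM in control-AAV R6/1 and 11.9 FPKM in control-AAV wild type. Reads of the H2 class I genes, which are near copies of each other, may be split between rows, so their single values are uncertain.

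MHC class II genes stood differently against wild type. Cd74, the invariant chain, was at 41.9 FPKM in Elk-1-AAV R6/1, 18.7 FPKM in control-AAV R6/1 and 103 FPKM in control-AAV wild type. It was called higher between the R6/1 pools in the authors' deposited table, and both R6/1 pools lay below the wild-type pool. H2-Aa, a class II alpha chain, was at 20.03 FPKM in Elk-1-AAV R6/1, 12.9 FPKM in control-AAV R6/1 and 51.7 FPKM in control-AAV wild type. H2-Ab1, a class II beta chain, was at 14.5 FPKM in Elk-1-AAV R6/1, 7.89 FPKM in control-AAV R6/1 and 45.5 FPKM in control-AAV wild type. Neither chain passed the threshold between the R6/1 pools, with q of 0.858 and 0.518 in the authors' deposited table. The immunoproteasome subunit Psmb8 was at 12.5 FPKM in Elk-1-AAV R6/1 and 4.82 FPKM in control-AAV R6/1, with a q of 0.0697 in the authors' deposited table. Another subunit, Psmb9, was at 9.29 FPKM in Elk-1-AAV R6/1 and 1.83 FPKM in control-AAV R6/1, with a q of 0.159 in the authors' deposited table. The peptide transporter gene Tap1 was at 4.17 FPKM in Elk-1-AAV R6/1 and 1.64 FPKM in control-AAV R6/1, with a q of 0.141 in the authors' deposited table.

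**Figure D3:**
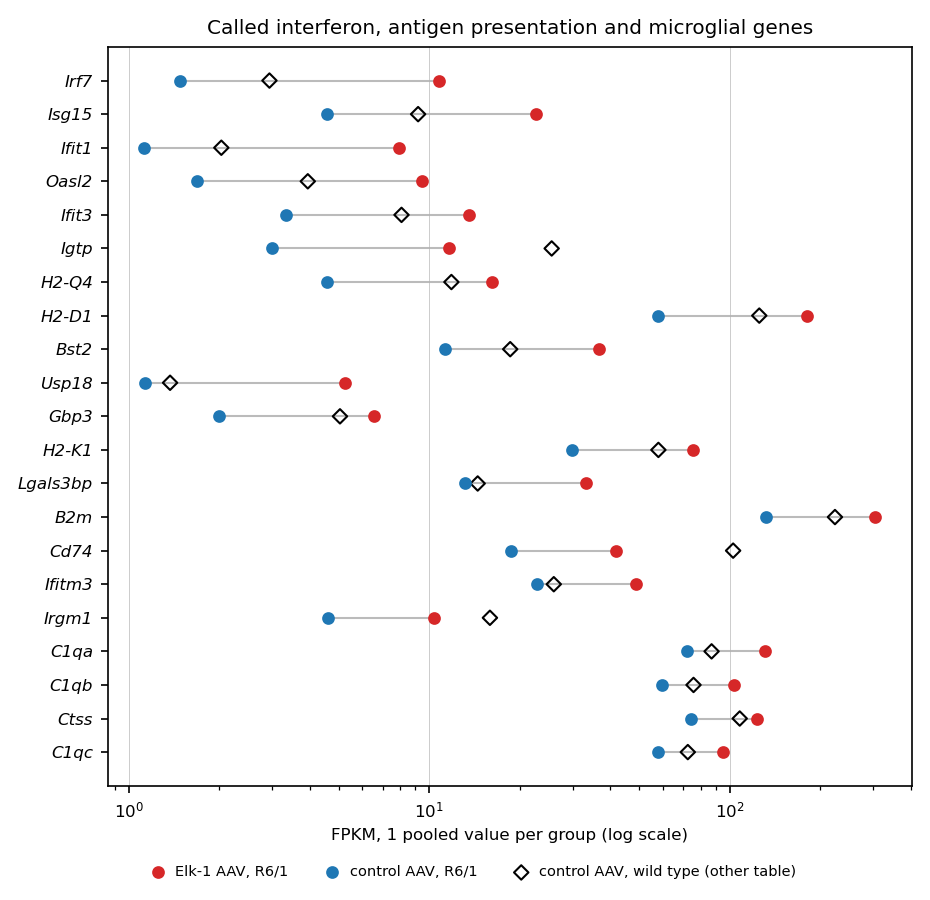
Pooled FPKM on a log x axis for called interferon, antigen presentation and microglial genes in Elk-1-AAV R6/1 (red), control-AAV R6/1 (blue) and control-AAV wild type (open diamonds, from another table). Red points lie right of blue points for every gene shown, as their choice fixed; the diamonds of Igtp (25.6 FPKM), Cd74 (103 FPKM) and Irgm1 (15.9 FPKM) lie to the right of both.

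Microglial genes followed, with a lower median change. Of 23 listed genes, 4 were called higher (0.300% of all genes) and 0 lower in the authors' deposited table, and the median change was 0.44. An unadjusted p under 0.05 was listed for 12 in the authors' deposited table, all with higher values, as for 2.60% of all genes. The called genes were Ctss, a lysosomal protease, and the 3 genes of the complement component C1q. C1qa was at 131 FPKM in Elk-1-AAV R6/1, 72.1 FPKM in control-AAV R6/1 and 87.1 FPKM in control-AAV wild type. C1qb was at 103 FPKM in Elk-1-AAV R6/1, 59.7 FPKM in control-AAV R6/1 and 75.8 FPKM in control-AAV wild type. C1qc was at 94.7 FPKM in Elk-1-AAV R6/1, 57.8 FPKM in control-AAV R6/1 and 72.6 FPKM in control-AAV wild type, with a q of 0.0302 between the R6/1 pools in the authors' deposited table. The C1q genes thus kept 1 order over the 3 pools. Ctss was at 123 FPKM in Elk-1-AAV R6/1 and 74.5 FPKM in control-AAV R6/1. The following markers of resident microglia were not called. Cx3cr1, the fractalkine receptor, was at 16.7 FPKM in Elk-1-AAV R6/1 and 13.4 FPKM in control-AAV R6/1. P2ry12, a purine receptor of resident microglia, was at 19.2 FPKM in Elk-1-AAV R6/1 and 14.0 FPKM in control-AAV R6/1. Csf1r, the receptor that microglia need to survive, was at 38.1 FPKM in Elk-1-AAV R6/1 and 26.2 FPKM in control-AAV R6/1, with a q of 0.181 in the authors' deposited table.

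Other glial and blood-derived cells were examined in the same way. Of 18 listed astrocyte genes 0 were called and 1 had an unadjusted p under 0.05 in the authors' deposited table, with a median change of 0.02 that became -0.01 when the pools were scaled by their upper quartile. Gfap, the intermediate filament of astrocytes, was at 129 FPKM in Elk-1-AAV R6/1 and 101 FPKM in control-AAV R6/1, with a q of 0.999 in the authors' deposited table. Among 17 listed genes induced in reactive astrocytes, Iigp1 and Gbp2, both GTPases that interferon also induces, were called higher, each with a q of 0.0215 in the authors' deposited table, and the list's median change was 0.22. Iigp1 was below 1.26 FPKM in control-AAV R6/1 and thus in the table only through the Elk-1-AAV pool; among the 15 genes at or above that level in both pools, 1 was called higher in the authors' deposited table and the median was 0.15. Iigp1 was at 3.43 FPKM in Elk-1-AAV R6/1, 0.579 FPKM in control-AAV R6/1 and 7.36 FPKM in control-AAV wild type, and Gbp2 was at 6.09 FPKM in Elk-1-AAV R6/1, 2.17 FPKM in control-AAV R6/1 and 9.40 FPKM in control-AAV wild type. Both were highest in the wild-type pool. None of 20 listed oligodendrocyte genes was called, and none had an unadjusted p under 0.05 in the authors' deposited table; their median change was 0.09. Among 17 listed endothelial and mural cell genes Ly6c1 was called higher, with a q of 0.0302 in the authors' deposited table, at 52.0 FPKM in Elk-1-AAV R6/1 and 27.6 FPKM in control-AAV R6/1, and the list's median change was 0.22.

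Of 26 lymphocyte markers 3 were listed. Igj, the joining chain of polymeric antibodies made by plasma cells, was the gene with the highest change among called genes, 3.36, at 39.1 FPKM in Elk-1-AAV R6/1, 2.91 FPKM in control-AAV R6/1 and 1.49 FPKM in control-AAV wild type. The other 2, Lck, a T cell kinase, and Cd4, a T cell coreceptor, each had a q of 0.999 in the authors' deposited table. Lck was at 2.28 FPKM in Elk-1-AAV R6/1 and 1.34 FPKM in control-AAV R6/1, and Cd4 was at 6.39 FPKM in Elk-1-AAV R6/1 and 5.63 FPKM in control-AAV R6/1. Control-AAV wild type had 14.2 FPKM of Cd4. At 8 weeks without AAV, Cd4 was at 9.40 FPKM in R6/1 and 24.8 FPKM in wild type. Cd4 was called lower in R6/1 at 10 weeks and at 8 weeks in the authors' deposited tables. Markers of monocytes, neutrophils and border macrophages were listed for 4 of 17, with 0 called, 2 at an unadjusted p under 0.05 in the authors' deposited table and a median change of 0.46. The part of such cells in the immune genes that rose was not tested. Among 14 listed chemokines and cytokines Cxcl13, which attracts B cells, was called higher, at 3.41 FPKM in Elk-1-AAV R6/1 and listed at 0 in control-AAV R6/1, while control-AAV wild type had 1.68 FPKM. It was among 3 of the 14 that were in the table only through the Elk-1-AAV pool and had to be higher; among the other 11, 0 were called and 1 had an unadjusted p under 0.05 in the authors' deposited table, with a median change of 0.10. Ccl5 and Cxcl10 were below 1.26 FPKM in control-AAV R6/1 as well. Ccl5, which attracts T cells, was at 12.6 FPKM in Elk-1-AAV R6/1 and 0.956 FPKM in control-AAV R6/1, with a q of 0.812 in the authors' deposited table. Cxcl10, an interferon-induced chemokine kept in the reactive astrocyte list, was at 7.81 FPKM in Elk-1-AAV R6/1 and 0.633 FPKM in control-AAV R6/1, with a q of 0.891 in the authors' deposited table.

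Of the 38 genes called higher (0.300% of all genes), 26 belonged to these immune lists, 5 to other lists and 7 to none. The 7 were Ifi27l2a, C4b, I830012O16Rik, Mpeg1, Gh, Prl and Stac2. Ifi27l2a, an interferon-inducible gene not in the list, was at 49.1 FPKM in Elk-1-AAV R6/1, 7.16 FPKM in control-AAV R6/1 and 10.96 FPKM in control-AAV wild type. C4b, complement component 4, was at 19.4 FPKM in Elk-1-AAV R6/1, 5.48 FPKM in control-AAV R6/1 and 10.2 FPKM in control-AAV wild type. Mpeg1, a pore-forming protein of macrophages, was at 11.8 FPKM in Elk-1-AAV R6/1 and 6.33 FPKM in control-AAV R6/1. I830012O16Rik was at 8.07 FPKM in Elk-1-AAV R6/1 and 2.40 FPKM in control-AAV R6/1. The pituitary hormone genes Prl, prolactin, and Gh, growth hormone, also rose. Prl was at 156 FPKM in Elk-1-AAV R6/1, 34.3 FPKM in control-AAV R6/1 and 12.4 FPKM in control-AAV wild type. Gh was at 92.3 FPKM in Elk-1-AAV R6/1, 22.4 FPKM in control-AAV R6/1 and 26.6 FPKM in control-AAV wild type. Stac2 was at 33.7 FPKM in Elk-1-AAV R6/1, 21.2 FPKM in control-AAV R6/1 and 48.1 FPKM in control-AAV wild type, with a q of 0.0385 between the R6/1 pools in the authors' deposited table.

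Genes of neighbouring brain regions, in lists of 15 and 10 tested genes, made up 8 of the 35 genes called lower. Over all 12678 genes, 0.276% were called lower and 2.30% had an unadjusted p under 0.05 with a lower value in the authors' deposited table. Of 19 hypothalamic and septal genes 15 were listed, all with a lower value under Elk-1 AAV, 4 called lower and 11 at an unadjusted p under 0.05 in the authors' deposited table, with a median change of -1.58. In 6 of the 15 the Elk-1-AAV value was below 1.26 FPKM, so these were in the table only through the control-AAV pool; among the other 9, 4 were called lower, 9 had an unadjusted p under 0.05 in the authors' deposited table, and the median was -1.05. Summed over the list, the level was 72.4 FPKM in Elk-1-AAV R6/1 and 529 FPKM in control-AAV R6/1. These sums include the 6 genes, among them Pmch at 111 FPKM and Hcrt at 87.8 FPKM in control-AAV R6/1. In the genotype table, which lists 16 of these genes rather than 15, the summed level was 518 FPKM in the same control-AAV R6/1 pool and 105 FPKM in control-AAV wild type. The high level in both comparisons was thus that of the control-AAV R6/1 pool, which they share, so they are not independent.

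Oxt, the oxytocin precursor, was at 9.04 FPKM in Elk-1-AAV R6/1, 112 FPKM in control-AAV R6/1 and 15.7 FPKM in control-AAV wild type, a change of -3.50 between the R6/1 pools with a q of 0.0215 in the authors' deposited table. Avp, the vasopressin precursor, was at 15.6 FPKM in Elk-1-AAV R6/1, 102 FPKM in control-AAV R6/1 and 38.2 FPKM in control-AAV wild type, also with a q of 0.0215 in the authors' deposited table. Trh, the precursor of thyrotropin-releasing hormone, was at 4.21 FPKM in Elk-1-AAV R6/1, 22.5 FPKM in control-AAV R6/1 and 5.78 FPKM in control-AAV wild type. For all 3 peptides the control-AAV R6/1 pool was the highest and the Elk-1-AAV R6/1 pool the lowest. Gpr101, an orphan receptor, was at 2.55 FPKM in Elk-1-AAV R6/1, 6.34 FPKM in control-AAV R6/1 and 2.92 FPKM in control-AAV wild type. The widest gaps belonged to uncalled genes that were in the table only through the control-AAV pool and had to be lower. Pmch, which encodes melanin-concentrating hormone of the lateral hypothalamus, was at 0.192 FPKM in Elk-1-AAV R6/1, 111 FPKM in control-AAV R6/1 and 1.25 FPKM in control-AAV wild type. Hcrt, the orexin precursor of the same region, was at 0.243 FPKM in Elk-1-AAV R6/1, 87.8 FPKM in control-AAV R6/1 and 0.246 FPKM in control-AAV wild type. Neither was called, with q of 0.999 between the R6/1 pools in the authors' deposited table.

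Thalamic and pallidal genes were lower too. Of 12, 10 were listed, all with a lower value and with a median change of -0.75. Of them 4 were called lower (0.276% of all genes) and 9 had an unadjusted p under 0.05 in the authors' deposited table. Over all genes 2.30% had such a p with a lower value. In 1 of the 10 the Elk-1-AAV value was below 1.26 FPKM, so it had to be lower. Among the other 9, 4 were called lower and 8 had an unadjusted p under 0.05 in the authors' deposited table, with a median of -0.68. Prkcd, a protein kinase C isoform of thalamic neurons, was at 7.16 FPKM in Elk-1-AAV R6/1, 21.9 FPKM in control-AAV R6/1 and 7.11 FPKM in control-AAV wild type. Slc17a6, the vesicular glutamate transporter of subcortical neurons, was at 6.17 FPKM in Elk-1-AAV R6/1, 19.9 FPKM in control-AAV R6/1 and 7.73 FPKM in control-AAV wild type. Tcf7l2, a transcription factor of thalamic neurons, was at 2.40 FPKM in Elk-1-AAV R6/1, 5.77 FPKM in control-AAV R6/1 and 1.99 FPKM in control-AAV wild type, with a q of 0.0302 in the authors' deposited table. In these 3 genes the Elk-1-AAV R6/1 and wild-type pools lay close together, below the control-AAV R6/1 pool. Ntng1, netrin G1, was at 4.75 FPKM in Elk-1-AAV R6/1, 8.21 FPKM in control-AAV R6/1 and 4.97 FPKM in control-AAV wild type, with a q of 0.0435 in the authors' deposited table. The dissection of the libraries is not described beyond the name of the tissue, and the part of tissue from outside the striatum in these differences was not tested.

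**Figure D4:**
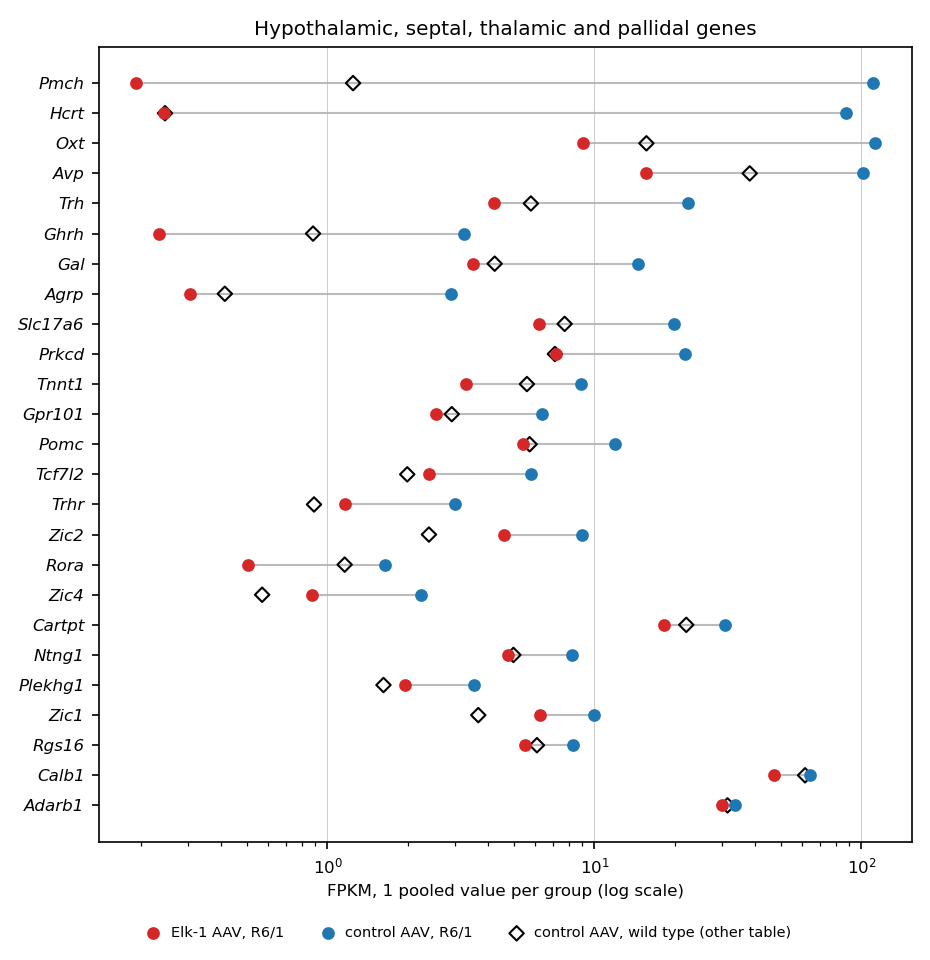
Pooled FPKM on a log x axis for the listed hypothalamic, septal, thalamic and pallidal genes in Elk-1-AAV R6/1 (red), control-AAV R6/1 (blue) and control-AAV wild type (open diamonds, from another table). The control-AAV R6/1 point is the rightmost for each gene, most widely so for Pmch (0.192 FPKM in Elk-1-AAV R6/1, 111 FPKM in control-AAV R6/1). Pmch, like every gene with an Elk-1-AAV value below 1.26 FPKM, was in the table only through the control-AAV pool.

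Of the 35 genes called lower (0.276% of all genes), 8 were in the hypothalamic and thalamic lists, Calb2 was in the interneuron list and 26 were in none. Calb2, the calcium buffer calretinin, was at 23.5 FPKM in Elk-1-AAV R6/1, 77.1 FPKM in control-AAV R6/1 and 25.7 FPKM in control-AAV wild type. None of the other 15 interneuron genes was called in the authors' deposited table, and the list's median change was -0.06. Resp18, a protein of neuroendocrine secretory vesicles, was at 150 FPKM in Elk-1-AAV R6/1, 325 FPKM in control-AAV R6/1 and 196 FPKM in control-AAV wild type. Hap1, the huntingtin-associated protein, was at 88.3 FPKM in Elk-1-AAV R6/1, 155 FPKM in control-AAV R6/1 and 79.5 FPKM in control-AAV wild type. Gpx3, a secreted glutathione peroxidase, was at 13.8 FPKM in Elk-1-AAV R6/1, 40.9 FPKM in control-AAV R6/1 and 15.2 FPKM in control-AAV wild type. In Calb2, Resp18, Hap1 and Gpx3 the control-AAV R6/1 pool was again the highest. Cbln1, a synapse-organizing protein, was at 3.96 FPKM in Elk-1-AAV R6/1, 14.0 FPKM in control-AAV R6/1 and 3.91 FPKM in control-AAV wild type. Agt, angiotensinogen, was at 16.8 FPKM in Elk-1-AAV R6/1, 36.7 FPKM in control-AAV R6/1 and 17.2 FPKM in control-AAV wild type. Ngb, neuroglobin, was at 7.59 FPKM in Elk-1-AAV R6/1, 20.8 FPKM in control-AAV R6/1 and 7.71 FPKM in control-AAV wild type. These 3 genes lay close to their wild-type levels in Elk-1-AAV R6/1. Peg10, an imprinted gene derived from a retrotransposon, was at 5.33 FPKM in Elk-1-AAV R6/1, 15.4 FPKM in control-AAV R6/1 and 9.17 FPKM in control-AAV wild type. Magel2, an imprinted gene of the hypothalamus, was at 1.86 FPKM in Elk-1-AAV R6/1, 5.34 FPKM in control-AAV R6/1 and 1.23 FPKM in control-AAV wild type. Fabp7, a fatty acid binding protein of glia, was at 63.3 FPKM in Elk-1-AAV R6/1 and 112 FPKM in control-AAV R6/1.

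The 8-week R6/1 and wild-type libraries, which carry no AAV and are not shared with the 10-week tables, gave a comparison of other mice. Of the 35 genes called lower under Elk-1 AAV, 12 (34.3%) were called higher in R6/1 at 8 weeks in the authors' deposited tables, where 0.856% of the 12612 genes common to both tables were; these 12 made up 11.1% of the 108 genes so called at 8 weeks. Slc17a6 was at 12.9 FPKM in R6/1 and 7.98 FPKM in wild type at 8 weeks, Calb2 at 26.4 FPKM in R6/1 and 15.1 FPKM in wild type, and Avp at 10.3 FPKM in R6/1 and 4.44 FPKM in wild type. The other 9 were Agt, Resp18, Magel2, Igsf1, Fam70a, Arhgap36, Irs4, Ntng1 and AW551984. Of the 38 genes called higher under Elk-1 AAV, 34 were listed at 8 weeks, of which 3, with Ifit1 and H2-D1 among them, were called higher in R6/1 and 3, Dbp, Kl and Stac2, were called lower in the authors' deposited tables, 8.82% each. The background for lower calls at 8 weeks was 5.44%. Peg10 was the 1 gene called lower both under Elk-1 AAV and in R6/1 at 8 weeks.

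Markers of other tissue at the border of the striatum were read as well. Of 18 listed choroid plexus and ependymal genes Kl, encoding klotho, was called higher, and 4 had an unadjusted p under 0.05 in the authors' deposited table, with a median change of 0.43. Kl was at 13.7 FPKM in Elk-1-AAV R6/1, 7.12 FPKM in control-AAV R6/1 and 2.36 FPKM in control-AAV wild type. Ttr, transthyretin, the most abundant of them, was at 2236 FPKM in Elk-1-AAV R6/1, 1585 FPKM in control-AAV R6/1 and 333 FPKM in control-AAV wild type, with a q of 0.999 between the R6/1 pools in the authors' deposited table. For Kl and Ttr both R6/1 pools of 10 weeks thus exceeded wild type. In the 10-week genotype comparison 8 of 18 listed members were called higher in R6/1 in the authors' deposited table (0.725% of all genes), with a median change of 1.29. The direction was the other way at 8 weeks without AAV, where 0 were called higher and 8 lower (5.34%), with a median of -0.95. Ttr was then at 560 FPKM in R6/1 and 1455 FPKM in wild type. Of 14 listed cortical excitatory neuron genes 0 were called and 2 had an unadjusted p under 0.05 in the authors' deposited table, with a median change of 0.23. Slc17a7, the vesicular glutamate transporter of cortical neurons, was at 335 FPKM in Elk-1-AAV R6/1, 255 FPKM in control-AAV R6/1 and 469 FPKM in control-AAV wild type. Summed cortical levels were 583 FPKM in Elk-1-AAV R6/1 and 457 FPKM in control-AAV R6/1. How far the makeup of the dissected tissue bears on the gene groups above was not tested.

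**Figure D5:**
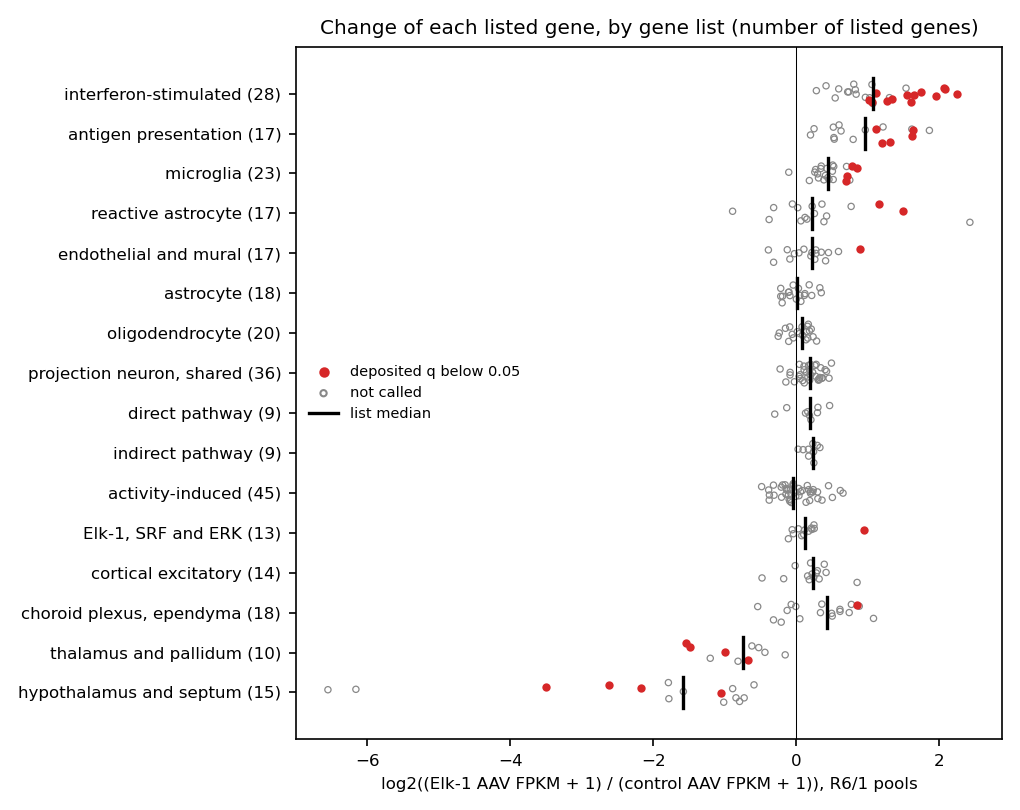
Each point is a listed gene, placed by its log2(FPKM + 1) change, Elk-1 AAV over control AAV in R6/1, within its gene list; red points have a deposited q below 0.05 and black bars are list medians. The interferon median is 1.07 and the antigen presentation median 0.97; those of the thalamic and hypothalamic lists are -0.75 and -1.58, and the projection neuron and activity-induced lists hold no red point.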

How the data were processed

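Total RNA of mouse striatum was sequenced from TruSeq libraries, per the labels' protocols. Per the submitters' processing notes the mm9 build, Bowtie, TopHat, Cufflinks and Cuffdiff were used, versions unnamed; the sources used here do not give annotation or strandedness. The authors deposited, per group and gene, a pooled FPKM value, a log2 fold change, a test statistic (a score of their program), a p-value and a q-value; recomputing the Benjamini-Hochberg adjustment over all rows gave the deposited q-values, and p comes in steps of 5e-05. No values per library were in the table, so the planned limma fit was not run and calls are the authors' q below 0.05. The changes, with a pseudocount of 1, list medians and motif counts were computed here with Python 3.11.15 and pandas 2.3.3. The computation of the change was tested on simulated data, while list medians and motif counts were not. Of the rows, 11.4% share their position with another gene, among the called ones Dbp and Baiap3, and may hold the same reads; near copies such as H2, Ifit, Gbp and ribosomal protein genes are uncertain likewise. Transcript length was matched for 99.0% of genes and correlated weakly with the change (Spearman's rho -0.18 across genes, a description); the median longest transcript was 1937 bases among genes called higher, 3542 bases among genes called lower and 3427 bases overall. Genes were named by a rule: Elk1, Elk3, Elk4, Srf, Htt and set marker genes, the 15 called genes with the highest and the 15 with the lowest change, and up to 4 called or the 2 most abundant genes of each list; members given beyond it were chosen after their values were seen. One called interferon gene is counted but not reported here. The comparison, its members and the 35 gene lists were chosen with earlier results of these data known. Alternatives varied the threshold, filter, pseudocount and scaling.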

Additional observations from a re-analysis of the deposited data

Results flagged for a closer look

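The 23 microRNA and small nucleolar RNA rows left out of the comparisons held 28.1% of the summed FPKM in Elk-1-AAV R6/1 and 17.2% in control-AAV R6/1, a share outside the main measurement. None was called in the authors' deposited table, where their lowest q was 0.326. Of these rows 2 were listed at 0 in Elk-1-AAV R6/1 and 12 in control-AAV R6/1. Such rows were in the table only through the other pool, which fixed their direction. Snord42b alone was at 87855 FPKM in Elk-1-AAV R6/1 and 21817 FPKM in control-AAV R6/1, with a q of 0.999 in the authors' deposited table. Other rows had lower values in Elk-1-AAV R6/1. Among them, Mir703 was at 17417 FPKM in Elk-1-AAV R6/1 and 22689 FPKM in control-AAV R6/1. Mir682 was at 4862 FPKM in Elk-1-AAV R6/1 and 9741 FPKM in control-AAV R6/1. The depth behind these rows is unknown, and other groups' rows of this kind were not analysed here.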

How the results depend on the processing

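No paired analysis was possible because the table holds 1 pooled value per group; for the same reason leaving out each replicate was not run. A q below 0.1 gave 49 genes higher and 40 lower, and a q below 0.01 gave 0 higher and 0 lower, since the lowest q in the authors' deposited table is 0.0122. Other filters, and adjusting over the tested genes alone, left the counts within 1.5 times. Of 279 list medians under other settings 264 moved by less than 0.1 and 15, in 8 lists, by more. With a pseudocount of 0.1 the median was 1.501 for interferon, 1.16 for antigen presentation, 0.73 for lymphocyte, -2.02 for hypothalamic and -1.03 for thalamic genes. With a mean of at least 2 FPKM it was 1.27 for interferon, 1.76 for lymphocyte (Igj and Cd4 alone), 0.10 for chemokine, -0.060 for fibroblast, -1.41 for hypothalamic and 0.017 for other ETS family genes. With both pools at 1.26 FPKM or more it was 0.10 for chemokine, -0.12 for fibroblast and -1.05 for hypothalamic genes, and with X and Y chromosomes left out, a setting chosen after seeing the data like the one before it, -1.68 for hypothalamic genes. The cause of these moves was not tested. Of the 73 called genes 0 changed sign under the other pseudocount and scalings; 38 of them, and 7 of 80 named uncalled genes, moved by more than 0.1 with a pseudocount of 0.1, such as Cxcl13 at 5.13 and Pmch at -8.57. The signs of the uncalled Htt, Hsp90ab1, Ndrg2, Snap25 and Hist3h2ba, all with changes near 0, turned with the scaling. Signs turned for ion channels (-0.01 when centred and -0.02 by upper quartile) and astrocytes (-0.01 by upper quartile). With 2 and 4 libraries pooled, uncalled differences are not shown to be absent.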

Other observations

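Among 15 circadian clock genes Dbp, a clock output transcription factor, was called higher in the authors' deposited table, at 78.8 FPKM in Elk-1-AAV R6/1, 32.6 FPKM in control-AAV R6/1 and 108 FPKM in control-AAV wild type, and its row shares its position with another gene. In the same list 5 genes with a higher value and 1 with a lower value had an unadjusted p under 0.05 in the authors' deposited table, with a median change of 0.17. Nr1d1, which encodes the repressor REV-ERB alpha, was at 70.7 FPKM in Elk-1-AAV R6/1 and 51.3 FPKM in control-AAV R6/1. Arntl, which encodes the clock activator BMAL1, was at 12.95 FPKM in Elk-1-AAV R6/1 and 18.9 FPKM in control-AAV R6/1. The time of day at which tissue was taken is not stated in the labels, and its part in these values was not tested.

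Among 79 ribosomal protein genes Rps14 was called higher, with a q of 0.0215 in the authors' deposited table, at 174 FPKM in Elk-1-AAV R6/1 and 108 FPKM in control-AAV R6/1, and the list's median change was 0.11. In the lists that follow 0 genes were called. The median change was 0.07 over 74 nuclear oxidative phosphorylation genes, 0.06 over 31 synaptic vesicle genes and -0.11 over 31 glutamate and GABA-A receptor genes. It was 0.00 over 53 ion channel genes, of which 5 with a higher value had an unadjusted p under 0.05 in the authors' deposited table. It was -0.23 over 19 heat shock and chaperone genes, of which 15 had a lower value in Elk-1-AAV R6/1. It was -0.08 over 21 cholesterol synthesis genes, 0.17 over 19 apoptosis and p53 genes, 0.07 over 8 listed cell cycle genes and -0.05 over 10 histone genes. It was -0.27 over 16 fibroblast and matrix genes, of which 6 with a lower value had an unadjusted p under 0.05 in the authors' deposited table; among the 13 at or above 1.26 FPKM in both pools it was -0.12, with 4 such genes, and with a mean of at least 2 FPKM it was -0.060. It was 0.04 over 8 oligodendrocyte precursor genes and -0.25 over 4 listed erythroid genes.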
